A study of Mus musculus with 8 samples.

Results

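Mitophagy receptors and kinases, 10 genes whose products mark mitochondria for removal or link them to the autophagosome, were followed in mouse inguinal white adipose tissue (ING WAT): the kinases *Pink1* and *Tbk1*, the ubiquitin ligase *Mul1*, and the receptors *Bnip3*, *Bnip3l*, *Fundc1*, *Bcl2l13*, *Fkbp8*, *Phb2* and *Optn*. They were chosen by symbol, with earlier results of these data known, and form 10 of the 38369 genes and 48 of the 91930 transcripts with usable values. Poly(A) RNA from the inguinal depot of C57BL/6j mice was sequenced at postnatal day 21 (PN21, around weaning, mice m1, m49, m138 and m145) and at postnatal day 98 (PN98, young adulthood, mice m35, m106, m114 and m125), with 1 library per mouse and 4 mice per age. The mice carry no engineered allele in the labels, and per the study's methods mice weaned onto a standard synthetic diet later received either a maintenance form of it or a western style diet. Which of these the 4 sequenced PN98 mice had is not given in the sources used here. The comparison of the ages addresses how the fat depot changes between weaning and adulthood.

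Mitophagy is the removal of damaged or surplus mitochondria by autophagy. In the ubiquitin route PINK1 accumulates on mitochondria that lose their membrane potential and phosphorylates ubiquitin, after which soluble receptors such as optineurin, itself phosphorylated by TBK1, link the ubiquitin coat to the LC3 family on the growing autophagosome. In the receptor route, proteins that sit in the outer membrane (BNIP3, BNIP3L, FUNDC1, BCL2L13 and FKBP8) or, once the outer membrane is ruptured, in the inner membrane (PHB2) bind LC3 directly. In fat, clearance of mitochondria is known to accompany the loss of beige character.

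*Pink1*, *Bnip3* and *Optn* rose from PN21 to PN98, each with all 4 PN98 mice above all 4 PN21 mice, while no member fell past the test. Expression is given as FPKM (fragments per kilobase of transcript scaled to the mapped fragments of the library), which allows levels of different genes to be compared per length, summed over the transcripts of a gene. Adjusted p-values come from limma fitted over the 16097 genes with a mean of at least 1 FPKM and were adjusted over all of them, with 0.05 as the threshold. All 10 members passed that filter and 3 were called higher, where 2.36% of all genes tested were called higher and 2.94% lower. By limma 0 members were called lower, and at an unadjusted p under 0.05 there were 4 higher and 1 lower, where 8.19% of all genes were higher and 19.1% lower at that threshold. The ages did not overlap in 4 of the 10, *Phb2* being the other, against 16.1% of all genes tested in either direction. The median log2 fold change was 0.35 over the 10 members and -0.21 over all genes tested.

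**Figure D1:**
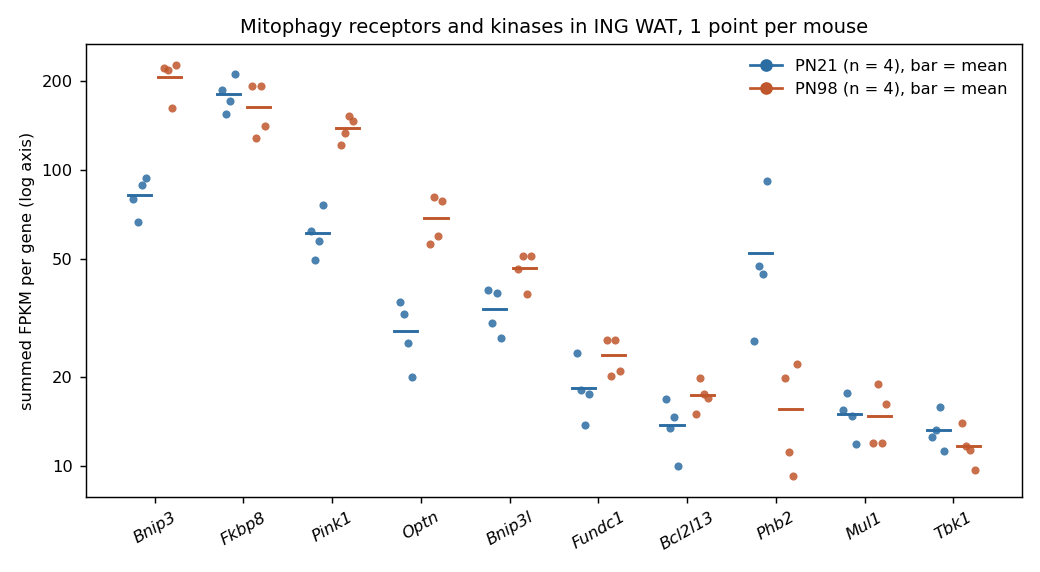
Summed FPKM of each member (log axis), 1 point per mouse, with the mean of the 4 mice of each age as a bar; genes are ordered by their mean at PN98. The ages lie apart for *Pink1*, *Bnip3*, *Optn* and *Phb2* and overlap for the other 6.

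The start regions of *Bnip3*, *Pink1* and *Optn* are shown because each of the 3 was called higher at PN98. RefSeq promoters on GRCm38.p6 (250 bases before to 50 bases after the annotated start) were available here for 9 of the 10 members, not for *Bnip3l*. They were searched on both strands for the hypoxia response core, ACGTG or GCGTG, and for CACGTG, the core of the CLEAR element that TFEB and TFE3 bind. CACGTG contains ACGTG on each strand, so every CACGTG also counts as a pair of ACGTG matches. Capitals mark matches on either strand, where CACGT and CACGC are ACGTG and GCGTG read on the other strand.
Bnip3 (chr7:138909457-138909756, minus strand): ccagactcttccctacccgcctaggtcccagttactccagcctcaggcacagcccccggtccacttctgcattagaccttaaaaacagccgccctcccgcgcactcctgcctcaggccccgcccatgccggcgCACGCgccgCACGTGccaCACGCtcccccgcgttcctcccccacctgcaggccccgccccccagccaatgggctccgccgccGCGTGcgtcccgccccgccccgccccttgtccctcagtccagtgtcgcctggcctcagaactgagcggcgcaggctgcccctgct
Pink1 (chr4:138326247-138326546, minus strand): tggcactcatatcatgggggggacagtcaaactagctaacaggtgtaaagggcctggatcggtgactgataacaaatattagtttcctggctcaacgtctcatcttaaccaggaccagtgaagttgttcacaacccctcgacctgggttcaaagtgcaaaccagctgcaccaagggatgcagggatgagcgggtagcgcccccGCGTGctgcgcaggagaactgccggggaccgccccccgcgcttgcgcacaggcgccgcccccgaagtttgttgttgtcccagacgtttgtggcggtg
Optn (chr2:5064068-5064367, minus strand): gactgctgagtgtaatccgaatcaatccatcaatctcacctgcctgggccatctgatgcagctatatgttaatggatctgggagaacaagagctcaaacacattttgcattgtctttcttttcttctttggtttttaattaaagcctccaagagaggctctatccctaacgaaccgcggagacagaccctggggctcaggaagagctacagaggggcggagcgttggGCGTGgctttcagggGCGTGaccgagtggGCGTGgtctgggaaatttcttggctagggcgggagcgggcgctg

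The *Bnip3* promoter held CACGTG once, 108 bases before the start, between a GCGTG match 117 bases and another 99 bases before it, and a further GCGTG 35 bases before the start. *Pink1* held 1 GCGTG, 47 bases before the start, and *Optn* held 3 GCGTG, at 23 and 8 bases before and 7 bases after the start. The *Optn* window, chr2:5064068-5064367, lay wholly upstream of the annotated gene, whose upstream end is at 5064051. Its positions therefore refer to the RefSeq start and not to that end. Of the 9 promoters 8 held ACGTG or GCGTG, all but that of *Fundc1*, against 43.8% of the 32851 promoters in the table. The *Fundc1* window, chrX:17571958-17572257, lay inside the annotated gene, whose upstream end is at 17572325. The bases before that end were not searched, so the lack of a match covers this window only. ACGTG alone was in 5 of 9 (19.6% of all), GCGTG in 7 of 9 (32.4% of all) and CACGTG in 3 of 9 (7.15% of all), namely *Bnip3*, *Mul1* and *Tbk1*. The shares of all promoters were not matched for base composition or for expression, and enrichment was not tested. The hypoxia core was present in promoters of genes that rose and of genes that were not called.

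*Pink1* (ENSMUSG00000028756, GRCm38 chr4:138313409-138326307, minus strand), the kinase that starts the ubiquitin route, measured 62.4, 49.5, 57.7 and 76.1 FPKM in m1, m49, m138 and m145 at PN21. At PN98 it measured 122, 134, 152 and 146 FPKM in m35, m106, m114 and m125. The ages did not overlap, and the means were 61.4 ± 11.1 and 138.3 ± 13.5 FPKM (SD, n = 4 each), a 2.25-fold difference. The log2 fold change on FPKM + 1 was 1.17 ± 0.17 (SE, adjusted p = 0.0121).

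Almost all of the *Pink1* signal came from 2 of its 3 transcripts. Pink1-201, the longest of its coding transcripts, measured 54.8, 33.3, 44.2 and 44.5 FPKM at PN21 and 108, 111, 124.7 and 120.2 FPKM at PN98. It was called in the transcript fit (log2 fold change 1.41 ± 0.19, adjusted p = 0.0241). Pink1-202 overlapped between the ages, from 7.57 to 31.6 FPKM at PN21 and from 13.1 to 27.1 FPKM at PN98 (log2 fold change 0.51 ± 0.46, adjusted p = 0.511). Pink1-203 stayed under 0.01 FPKM in every mouse.

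*Mul1* (ENSMUSG00000041241, chr4:138434671-138442265, plus strand), a ubiquitin ligase of the outer membrane, lies 108363 bases from *Pink1* on the same chromosome. It measured 15.5, 17.6, 14.8 and 11.9 FPKM at PN21 and 11.99, 19.0, 12.02 and 16.3 FPKM at PN98. The ages overlapped, with a log2 fold change of -0.03 and a 95% interval of -0.49 to 0.43 (adjusted p = 0.943). Within the gene, Mul1-203 held 37.4% of the signal at PN21 and 44.6% at PN98, Mul1-201 held 41.6% and 22.8%, and Mul1-202 held 21.0% and 32.7% (means of 4 mice). Mul1-201 measured 4.35 to 7.85 FPKM at PN21 and 2.22 to 5.14 FPKM at PN98, which did not pass the test (log2 fold change -0.93 ± 0.31, adjusted p = 0.165).

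*Tbk1* (ENSMUSG00000020115, chr10:121546455-121586787, minus strand), the kinase that phosphorylates optineurin, had a single transcript in the table. It measured 12.5, 13.3, 15.9 and 11.2 FPKM at PN21 and 14.0, 11.7, 11.3 and 9.73 FPKM at PN98. The ages overlapped (log2 fold change -0.16, 95% interval -0.55 to 0.22, adjusted p = 0.531). A difference as large as that of *Pink1* therefore lay outside the interval for both *Mul1* and *Tbk1*.

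*Bnip3* (ENSMUSG00000078566, chr7:138890836-138909519, minus strand), an outer membrane receptor known as a hypoxia-induced gene, had the largest difference of the 10 members among those called. It measured 79.9, 66.9, 88.8 and 93.7 FPKM at PN21 and 220, 217, 162 and 227 FPKM at PN98. The lowest PN98 mouse, m114, was still well above the highest PN21 mouse, m145. The means were 82.3 ± 11.8 and 206 ± 29.8 FPKM (SD, n = 4 each), a 2.51-fold difference (log2 fold change 1.31 ± 0.18, adjusted p = 0.00847).

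Bnip3-201, the longer of its 2 coding transcripts, held 88.5% of the gene's signal at PN21 and 94.9% at PN98. It measured 65.5, 63.3, 70.7 and 91.6 FPKM at PN21 and 208, 205, 154 and 216 FPKM at PN98, and it was called in the transcript fit (log2 fold change 1.43 ± 0.20, adjusted p = 0.0257). Its reads cannot be fully told apart from those of annotated copies. The processed pseudogene Gm16439 shared 305 of its 515 runs of 50 bases with *Bnip3* transcripts and had mean values of 99.4 FPKM at PN21 and 268 FPKM at PN98. The *Bnip3* level is uncertain to the extent that reads were split between them, and both were higher at PN98 in all 4 mice.

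*Bnip3l* (ENSMUSG00000022051, chr14:66985239-67008877, minus strand), also named Nix and the close relative of *Bnip3* that removes mitochondria from maturing red blood cells, measured 39.4, 30.5, 38.3 and 27.1 FPKM at PN21. At PN98 it measured 46.3, 51.2, 38.0 and 51.1 FPKM. In all, 3 PN98 mice were above every PN21 mouse and m114 was not, and the difference did not pass the test (log2 fold change 0.46, 95% interval 0.04 to 0.87, adjusted p = 0.156).

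Bnip3l-201, the coding transcript with the higher level, was near level, from 21.2 to 27.2 FPKM at PN21 and from 25.99 to 31.4 FPKM at PN98 (log2 fold change 0.20 ± 0.16, adjusted p = 0.464). The noncoding Bnip3l-205 measured 6.94, 3.03, 6.37 and 0 FPKM at PN21 and 11.2, 13.9, 8.38 and 11.3 FPKM at PN98, without overlap, but the listed 0 in m145 kept it out of the transcript fit. The second coding transcript, Bnip3l-202, was under 0.01 FPKM in all 4 PN21 mice and in m114 and measured 3.79, 2.21 and 2.20 FPKM in m35, m106 and m125. The pseudogene Bnip3l-ps shared 800 of its 1083 runs of 50 bases with *Bnip3l* and had means of 23.8 and 34.6 FPKM, so the split of reads between them is uncertain.

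*Fundc1* (ENSMUSG00000025040, chrX:17556564-17572325, minus strand), a receptor that answers to hypoxia through a change in its phosphorylation, measured 24.0, 18.1, 13.8 and 17.5 FPKM at PN21 and 26.7, 20.2, 26.8 and 21.0 FPKM at PN98. The ages overlapped (log2 fold change 0.36, 95% interval -0.09 to 0.82, adjusted p = 0.262). Fundc1-205 and Fundc1-201, the transcripts present in every mouse, had log2 fold changes of 0.12 ± 0.24 and 0.06 ± 0.24 (adjusted p = 0.761 and 0.878). Fundc1-203 and Fundc1-204 were under 0.01 FPKM in 2 and 4 of the 8 mice, and their fitted changes carry errors of several log2 units.

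*Bcl2l13* (ENSMUSG00000009112, chr6:120836212-120892842, plus strand), a mammalian counterpart of the yeast mitophagy receptor Atg32, had a single transcript, which the table lists together with the neighbouring *Bid*. It measured 16.8, 13.5, 14.6 and 10.04 FPKM at PN21 and 15.04, 19.9, 17.6 and 17.0 FPKM at PN98. Of the PN98 mice, 3 of 4 were above every PN21 mouse (log2 fold change 0.33, 95% interval -0.09 to 0.76, adjusted p = 0.266).

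*Fkbp8* (ENSMUSG00000019428, chr8:70527724-70535328, plus strand), an outer membrane receptor that also anchors BCL2, was the member with the highest level at PN21. It measured 186, 154, 171 and 211 FPKM at PN21 and 191, 128, 191 and 140 FPKM at PN98, and the ages overlapped (log2 fold change -0.16, 95% interval -0.60 to 0.28, adjusted p = 0.585). Fkbp8-201, 1 of 4 coding transcripts, held 48.7% and 50.3% of the signal. Of the 7 transcripts of *Fkbp8* tested, the retained-intron transcript Fkbp8-205 alone separated the ages, from 10.7 to 14.0 FPKM at PN21 and from 3.68 to 9.93 FPKM at PN98, without passing the test (adjusted p = 0.198). The gene overlaps *Kxd1*, with which 6 of its 11 transcripts are listed.

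*Phb2* (ENSMUSG00000004264, chr6:124712336-124716950, plus strand), a prohibitin of the inner membrane that binds LC3, was lower at PN98 in all 4 mice but did not pass the test. It measured 26.5, 47.3, 44.5 and 91.8 FPKM at PN21 and 19.8, 11.1, 9.25 and 22.2 FPKM at PN98, without overlap (log2 fold change -1.64 ± 0.41, adjusted p = 0.0593). Leaving out m35 put it past the threshold (log2 fold change -1.77, adjusted p = 0.0310), as did limma with array weights (adjusted p = 0.0142). Those 2 fits called 3538 and 4653 genes in all, against 853 in the main fit. Leaving out any other mouse did not put *Phb2* past it (adjusted p = 0.0622 to 0.158). Neither did scaling to nuclear genes or by the median of ratios (adjusted p = 0.0654 and 0.0897).

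The *Phb2* sum does not hold the gene's principal coding transcript, Phb2-201, which was not analysed here. The transcript with the highest mean was Phb2-205, a retained-intron transcript of 734 bases, at 6.35, 38.3, 9.96 and 82.0 FPKM at PN21 and 11.8, 4.14, 5.57 and 5.39 FPKM at PN98. It was high in m49 and m145 only, and the ages overlapped (adjusted p = 0.256). Phb2-206 and Phb2-202, also with retained introns and listed with *Emg1*, did not overlap, with log2 fold changes of -0.90 ± 0.26 and -1.02 ± 0.26 (adjusted p = 0.135 and 0.111). From the protein-coding transcripts that remained, Phb2-204 and Phb2-207, the log2 fold change was -0.63 (adjusted p = 0.764), and with every transcript that lists *Phb2* it was -1.06 (adjusted p = 0.0657).

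*Optn* (ENSMUSG00000026672, chr2:5020642-5064051, minus strand), the soluble receptor that binds ubiquitin and LC3, measured 35.8, 32.6, 26.01 and 19.97 FPKM at PN21. At PN98 it measured 56.2, 81.0, 59.8 and 78.4 FPKM, with no overlap. The means were 28.6 ± 7.06 and 68.9 ± 12.6 FPKM (SD, n = 4 each), a 2.41-fold difference (log2 fold change 1.25 ± 0.22, adjusted p = 0.0221). The call was lost without m138, m106 or m114 (adjusted p = 0.0675, 0.0776 and 0.0558), with log2 fold changes of 1.22, 1.17 and 1.31.

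The *Optn* signal was spread over several transcripts that were all higher in mean at PN98. Optn-201 measured 12.2, 10.004, 13.1 and 6.03 FPKM at PN21 and 22.9, 31.2, 15.2 and 31.0 FPKM at PN98. Optn-202 measured 12.9, 12.1, 6.76 and 11.4 FPKM at PN21 and 18.9, 25.9, 28.1 and 21.8 FPKM at PN98. Neither overlapped between the ages and neither passed the transcript test (adjusted p = 0.118 and 0.0809). The noncoding Optn-205 also did not overlap (log2 fold change 1.76 ± 0.54, adjusted p = 0.147). All but Optn-203 are listed together with 4930551O13Rik, and from Optn-203 alone the gene would not be called (log2 fold change 0.65, adjusted p = 0.171).

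**Figure D2:**
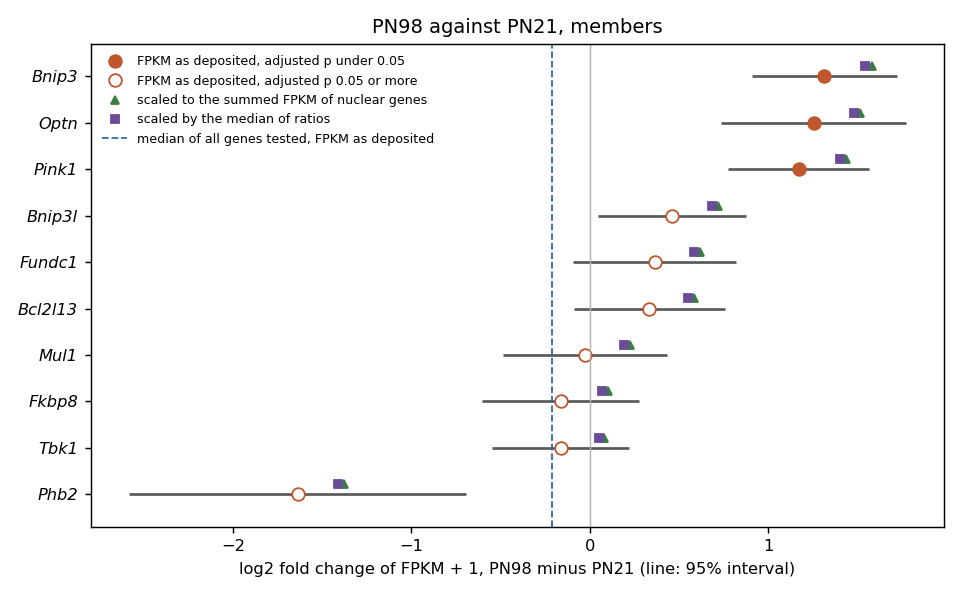
Log2 fold change of FPKM + 1, PN98 minus PN21, for each member (circles, filled where the adjusted p is under 0.05, with the 95% interval), and the same after each of 2 scalings (triangles and squares). *Bnip3*, *Optn* and *Pink1* lie between 1.17 and 1.31, and each member moves to the right after scaling.

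The deposited FPKM were lower at PN98 for most genes, and the scaling sets where no change lies. After scaling each mouse to the same summed FPKM of nuclear genes the median log2 fold change of all genes was 0.01, and after scaling by the median of ratios it was -0.02. The 3 calls were kept under both scalings, with log2 fold changes of 1.44 and 1.40 for *Pink1*, 1.58 and 1.54 for *Bnip3* and 1.51 and 1.48 for *Optn*. *Fkbp8*, *Tbk1* and *Mul1*, which were not called, changed from negative to positive under both scalings, so no direction is given for them.

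Of the 48 member transcripts 31 passed the filter of the transcript fit (above 0 in every mouse and a mean above 2 FPKM at either age) and 17 did not. Over the 23157 transcripts tested, 2 of these 31 were called higher, Pink1-201 and Bnip3-201, where 0.717% of all transcripts were called higher, and 0 were called lower by limma, with 10 of the 31 at an unadjusted p under 0.05 in either direction, as were 21.8% of all transcripts. Pink1-201 lost its call without any mouse but m35 (adjusted p = 0.0521 to 0.0914), and Bnip3-201 without any mouse but m145 and m35 (adjusted p = 0.0513 to 0.101), while the log2 fold changes stayed between 1.28 and 1.55. In 5 of the 31 at least 1 mouse was under 0.01 FPKM, and the fold changes of those are not interpretable.

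**Figure D3:**
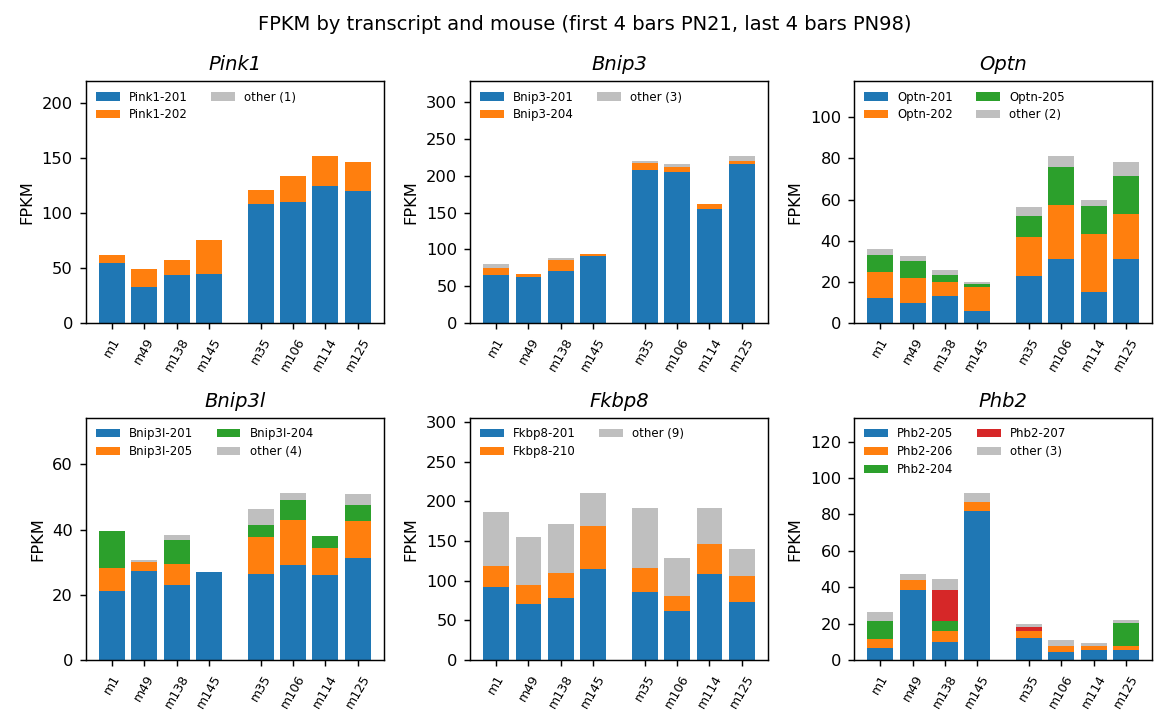
FPKM of the transcripts of 6 members, stacked by mouse, with the leading transcripts in colour and the others in grey. *Pink1* and *Bnip3* are made mostly of 1 coding transcript, *Optn* of 3 transcripts, and the *Phb2* bar of m145 is mostly Phb2-205 at 82.0 FPKM.

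The share held by each member's leading transcript, the one with the highest mean over the 8 mice, was not shown to move with age. The share of the leading transcript was compared in the 8 members with 2 or more transcripts by a two-sided exact permutation test over 70 assignments, for which the smallest p is 0.0286. For the leading transcript the ages overlapped in all 8, whereas they did not in 4.36% of the 8912 tested genes with 2 or more transcripts. With all mice the largest differences were in *Bnip3l*, where Bnip3l-201 held 75.7% ± 22.3 at PN21 and 61.0% ± 5.37 at PN98 (SD, n = 4, exact p = 0.343), and in *Pink1*, where Pink1-201 held 72.6% ± 12.6 and 84.1% ± 3.44 (exact p = 0.143). Both rested on m145, without which the differences were -6.71 points in place of -14.8 for *Bnip3l* and 6.79 in place of 11.5 for *Pink1*, below those of *Bnip3* (9.53) and *Mul1* (8.33). After Benjamini-Hochberg adjustment over the 8 members the lowest value was 0.549.

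The order of the members changed between the ages. At PN21 *Fkbp8* led at 181 FPKM and was above *Bnip3* (82.3) with ranges apart, and *Pink1*, *Phb2*, *Bnip3l*, *Optn*, *Fundc1*, *Mul1*, *Bcl2l13* and *Tbk1* followed with each range overlapping that of its neighbour. At PN98 *Bnip3* led at 206 FPKM with a range that overlapped that of *Fkbp8* (163), which in turn overlapped *Pink1* (138.3). *Optn* (68.9), *Bnip3l* (46.6), *Fundc1* (23.7) and *Bcl2l13* (17.4) then followed, each with its range apart from the one above. *Phb2* (15.6), *Mul1* (14.8) and *Tbk1* (11.7) came last, each overlapping the one above. The places of *Phb2* are those of a sum without Phb2-201 and not of the whole gene.

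Ratios within a library do not depend on the scaling between mice. *Bnip3* stood at 0.428 to 0.519 of *Fkbp8* in the PN21 mice and at 0.849 to 1.69 in the PN98 mice, and it exceeded *Fkbp8* in 0 of 4 and 3 of 4 mice. The *Fkbp8* sum in these ratios includes its retained-intron transcripts. *Bnip3* was 2.02 to 3.46 times *Bnip3l* at PN21 and 4.23 to 4.76 times at PN98. The ratios with *Bnip3* or *Bnip3l* are uncertain to the extent that reads were split with Gm16439 and Bnip3l-ps. *Pink1* was 2.80 to 6.37 times *Mul1* at PN21 and 7.04 to 12.6 times at PN98. These ratios were formed after the values were seen and carry no test.

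Of 54 further mitophagy genes 52 were tested, and *Gabarapl1* and *Sqstm1* rose while 0 fell. *Calcoco2* was under the filter and *Map1lc3b* was not analysed here. The median log2 fold change of the 52 was 0.07, beside -0.21 over all genes tested, and 2 of 52 is near the 2.36% of all genes called higher. At an unadjusted p under 0.05, 13 of the 52 were higher and 2 lower, beside the 8.19% and 19.1% of all genes. Without m35, *Ikbke* and *Tfeb* were called lower, as were 2858 of the 15988 genes tested in that fit.

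*Gabarapl1*, an Atg8 family protein that coats the autophagosome, measured 44.9, 25.3, 38.7 and 28.5 FPKM at PN21 and 82.1, 127, 99.6 and 105 FPKM at PN98. It was higher in all 4 PN98 mice (log2 fold change 1.58 ± 0.23, adjusted p = 0.0111). *Sqstm1*, which encodes the ubiquitin receptor p62, measured 267, 212, 255 and 218 FPKM at PN21 and 419, 494, 385 and 371 FPKM at PN98 (log2 fold change 0.81 ± 0.16, adjusted p = 0.0280). Its call was lost in 6 of the 8 fits that left out a mouse (without m1, m49, m138, m145, m106 or m114, adjusted p = 0.0639 to 0.0950).

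By role, 0 of 12 genes of the ubiquitin route, 1 of 7 adaptors, 0 of 17 partners and regulators, 1 of 4 Atg8 family genes, 0 of 5 genes of capture and fusion and 0 of 7 transcription factors were called. Among the transcription factors *Epas1*, which encodes HIF-2α, had 46.6 ± 9.99 and 69.5 ± 8.54 FPKM without overlap (log2 fold change 0.58 ± 0.19, adjusted p = 0.108). *Hif1a* overlapped between the ages (log2 fold change -0.18, adjusted p = 0.583). *Epas1* and *Hif1a* were singled out after their values were seen.

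**Figure D4:**
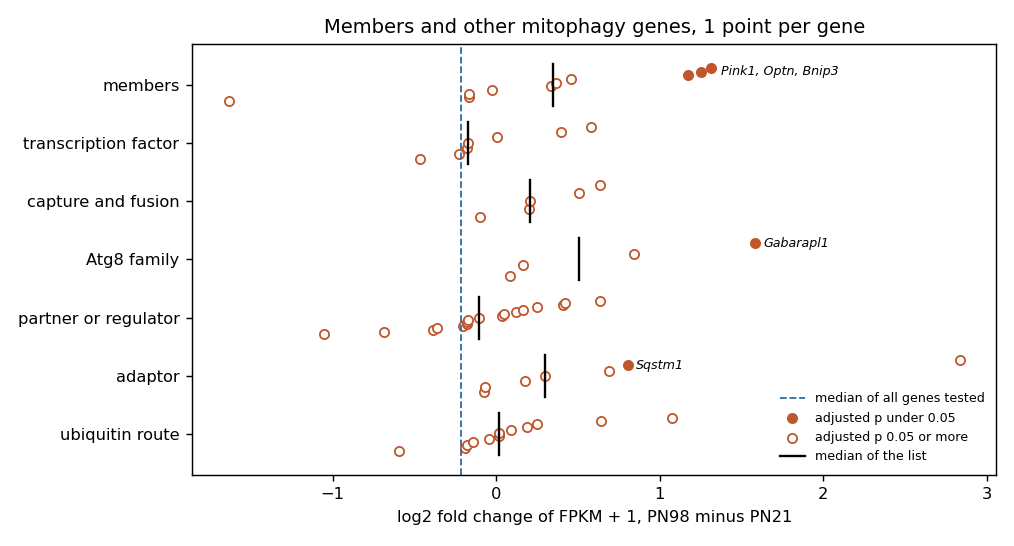
Log2 fold change of FPKM + 1, PN98 minus PN21, of the 10 members and the 52 other mitophagy genes tested, 1 point per gene by role, filled where the adjusted p is under 0.05. The named filled points are the 5 genes called, and the dashed line is the median of all genes tested (-0.21).

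Some cell type markers also differed between the ages, and in bulk tissue fewer cells of a type cannot be told apart from less RNA per cell. The adipocyte markers summed to 12258 to 22458 FPKM at PN21 and 32826 to 43321 FPKM at PN98, and 3 of the 6 were called higher. *Fabp4* made up most of that sum and did not pass the test (1.91-fold, adjusted p = 0.0538), nor did *Plin1* (1.68-fold, adjusted p = 0.297) or *Pparg* (0.891-fold, adjusted p = 0.597). The 3 called, *Adipoq*, *Cidec* and *Lipe*, were 2.70-fold, 4.46-fold and 2.00-fold higher at PN98, beside 2.25-fold, 2.51-fold and 2.41-fold for *Pink1*, *Bnip3* and *Optn*. Red blood cell markers fell in all 6 tested of 7 and summed to 8421 to 18115 FPKM at PN21 and 3675 to 5740 FPKM at PN98. The part of these cell types in the differences of the 3 genes was not tested.

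Brown or beige adipocyte markers summed to 3035 to 6457 FPKM at PN21 and 370 to 4225 FPKM at PN98, with 0 of 6 called. The ratio of the PN98 to the PN21 mean ranged over the 6 from 0.268 for *Cox7a1* and 0.298 for *Ucp1* to 1.05 for *Cidea* and 9.68 for *Elovl3*. *Ucp1* (544 to 650 and 7.41 to 356 FPKM), *Cox7a1* (855 to 1725 and 59.8 to 748 FPKM) and *Dio2* (1.34 to 2.64 and 0.114 to 1.004 FPKM) were lower at PN98 without overlap. The ages overlapped for *Cox8b*, *Cidea* and *Elovl3*. Of all genes tested, 16.1% did not overlap in either direction. Skeletal muscle markers summed to 91.5 to 852 FPKM and 645 to 4167 FPKM, with 2 of the 8 found called higher. Lymphocyte markers summed to 409 to 989 FPKM at PN21 and, at PN98, to 899 FPKM in m35 and 18.1 to 172 FPKM in the others, with 0 of 8 called. Macrophage markers overlapped between the ages (0 of 5 called). Epithelial markers were low, at 1.87 to 27.2 FPKM and 0.211 to 1.11 FPKM in sum, with 1 of the 4 tested lower. The Y-linked *Ddx3y* was at 18.1 to 25.9 FPKM in all 8 mice and *Xist* at 0.247 to 0.832 FPKM at PN21 and 0 to 0.00704 FPKM at PN98. Without m35, the mouse with the lymphocyte markers of the PN21 range, 3538 genes were called in place of 853, and *Pink1*, *Bnip3* and *Optn* were called as before.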

How the data were processed

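Poly(A) RNA of 8 libraries, 4 per age, was sequenced as paired ends with a stranded kit. The authors used CASAVA 1.8.2, FastQC, STAR 2.3.0 against mm10 and Cufflinks 2.1.1, per the labels, and deposited an FPKM for each transcript in each of the 8 mice. Read counts were not analysed here, so depth is unknown and gives no interval.

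Values of 40380 of the 91969 transcripts had lost their decimal mark. It was restored by keeping the reading that fits the SD, average and score columns of the deposited table, formed over 10 values. Where the authors' second listing gave intact values, 4998 of 4998 restored transcripts were equal. A further 31 were taken from that listing, and 39 with more than 1 reading were left out. A mark had been lost in 41 of the 48 member transcripts. The second listing's fold changes and p-values were not used. Transcripts were assigned to genes through GENCODE vM21 (GRCm38), 1927 by the table's single gene, and 1304 not at all. The genes column, planned as the main assignment, lists overlapping genes together and became an alternative. The protein sequences planned for display were not used here.

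FPKM were summed per gene, and log2(FPKM + 1) of genes with a mean of at least 1 was fitted with limma 3.58.1 (R 4.3.3, constant prior variance, Benjamini-Hochberg). Transcripts were fitted as log2(FPKM) where above 0 in all mice with a mean above 2 at either age, which follows the study's own filter. FPKM are not counts, so no count test was run. The samples carry no pairing across ages, and the labels do not say that mice came from separate litters. The p-values set the difference between the ages against the spread of these mice within each age. They treat the mice as independent and may be too small if mice shared a litter. The limma fit was tested on simulated data. Marker sums add FPKM over a list. Members, their transcripts (if tested, above 20% of the gene, or called), called genes of the mitophagy list and the 5 genes most alike to *Pink1* and *Bnip3* were named. The members and lists were chosen with earlier results of these data known. The alternatives were another pseudocount (0.1), other filters, 2 scalings, array weights, a variance trend, other transcript choices and leaving out each mouse.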

Additional observations from a re-analysis of the deposited data

Results flagged for a closer look

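A gap that set 1 mouse far from the other 3 of its age was found in 5 of 102 groups of 4 mice examined, over the summed FPKM of the members and the called pathway genes, the tested transcripts and the leading transcript shares. Chance flags about 1 in 20 groups.

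*Bnip3* in m114 at PN98 was 162 FPKM, with the other 3 mice of that age at 217 to 227 FPKM. The share of Pink1-201 in m35 was 89.2%, against 82.1% to 82.8% in the other PN98 mice. The share of Optn-201 in m114 was 25.4%, against 38.5% to 40.7%. Fundc1-204 was 10.5 FPKM in m1 and under 0.01 FPKM in the other PN21 mice. Phb2-204 was 12.9 FPKM in m125 and under 0.01 FPKM in the other PN98 mice. m114 thus stood apart in *Bnip3* and in the *Optn* share, and without it *Bnip3* had a log2 fold change of 1.43.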

How the results depend on the processing

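The number of members called stayed at 3 under another pseudocount, other filters, both scalings, a variance trend and the transcript choices added after seeing the data (every listed transcript, or coding transcripts alone). It was 4 with array weights, 2 with transcripts that list the member alone, for which *Bcl2l13* and *Phb2* have none, and 2 to 4 when a mouse was left out. *Pink1* and *Bnip3* were called in every one of these fits. With intact decimals alone no member could be tested. The member transcripts called numbered 0 to 3 when a mouse was left out. Of the other mitophagy genes, 8 were called after scaling by the median of ratios (*Calcoco1*, *Epas1*, *Gabarapl1*, *Mitf*, *Sqstm1*, *Stx17*, *Ulk2* and *Usp35*). Over all genes that fit called 770 higher and 459 lower of 16010 tested. When a mouse was left out 1 to 6 of the other mitophagy genes were called, 6 without m35 (*Fbxl4*, *Gabarapl1*, *Nbr1* and *Sqstm1* higher and *Ikbke* and *Tfeb* lower). Over all genes the fit without m35 called 680 higher and 2858 lower of 15988 tested. The leading transcript shares without overlap numbered 0 to 2 when a mouse was left out, with 2 without m1 and 1 without m125. The 4.36% of all genes holds for all mice, and no such share was formed with a mouse left out. No result is therefore read from these counts.

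Over all genes 380 were called higher and 473 lower, against 558 and 269 after scaling to nuclear genes, 770 and 459 after the median of ratios, 1154 and 3499 with array weights, and 210 to 3538 calls in all when a mouse was left out. The log2 fold change changed sign after scaling to nuclear genes and by the median of ratios, in that order, for *Fkbp8* (0.10 and 0.066), *Mul1* (0.22 and 0.19), *Tbk1* (0.081 and 0.049), Fkbp8-201 (0.15 and 0.11), Fkbp8-210 (0.10 and 0.064), Fkbp8-211 (0.049 and 0.013) and Tbk1-201 (0.090 and 0.054). With array weights it changed sign for *Mul1* (0.12), Bnip3-203 (-1.62) and Bnip3-204 (-0.039). When a mouse was left out the range crossed 0 for *Mul1* (-0.15 to 0.059), Fkbp8-201 (-0.26 to 0.0097), Fkbp8-210 (-0.31 to 0.086), Fkbp8-211 (-0.51 to 0.021), Fundc1-201 (-0.089 to 0.22), Fundc1-205 (-0.0021 to 0.23), Bnip3-203 (-3.62 to 6.03) and Bnip3-204 (-0.26 to 0.77). None of these was called in any of the fits that are named here for it. The causes were not tested.

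No paired analysis was possible because the mice of the 2 ages share no number in the labels. Depth is unknown, and 4 mice per age limit what the fits can call.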

Other observations

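The 5 genes whose log2(FPKM + 1) followed that of *Pink1* most closely over the 8 mice, among 11055 genes with a mean of at least 5 FPKM, were *Mogat1* (Pearson r = 0.984), *Sord* (0.975), *Ntrk2* (0.975), *Fsd2* (0.972) and *Grina* (0.971). *Mogat1*, a monoacylglycerol acyltransferase of fat synthesis, ranged from 6.91 to 10.9 FPKM at PN21 and from 29.8 to 49.8 FPKM at PN98. In all 5 the ages did not overlap. The mice share their age group in these correlations, which are descriptions with no test.

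For *Bnip3* the 5 genes were Gm14506 (0.994), Gm16439 (0.993), *Vnn3* (0.990), *Pmepa1* (0.989) and *Sbds* (0.986). Gm14506 and Gm16439 are processed pseudogenes that share 20 of 487 and 305 of 515 runs of 50 bases with *Bnip3* transcripts. Gm14506 measured 10.8 to 14.3 FPKM at PN21 and 27.7 to 35.6 FPKM at PN98.

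*Nbr1*, an adaptor of the mitophagy list, had the widest spread of that list at PN98. It measured 43.1, 56.2, 192 and 41.0 FPKM at PN21 and 69.2, 2331, 329 and 979 FPKM at PN98 (log2 fold change 2.83, adjusted p = 0.138). It was called without m35, and was singled out after its values were seen.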
